A study of Mus musculus with 186 samples.

Results

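The wild-type (WT) mouse hippocampus was compared between 12 and 4 weeks of age by bulk RNA sequencing. The libraries were taken by their labels (hippocampus, WT, 4 or 12 weeks) and number 6 at 4 weeks and 5 at 12 weeks, which is 11 of the 186 libraries in the series. The series was built around Akap11 mutant mice, and Akap11 encodes an anchoring protein that tethers protein kinase A. It covers 6 brain regions, both ages and 3 genotypes, WT, Akap11 +/- (HET) and Akap11 -/- (KO). No animal in the main comparison carried an Akap11 mutation according to the labels, and none was treated. The HET and KO hippocampi (10 libraries of each genotype over both ages) and the 52 WT libraries of the other 5 regions serve below as comparisons. Regions were cut from frozen brains in a cryostat. The labels give no sex, strain, litter or batch, and the ages share no library number, so age and any difference in collection cannot be told apart. The p-values measure the spread between these libraries, which the labels do not tie to named animals.

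Between weaning and young adulthood the rodent hippocampus is already wired but still changing. Oligodendrocytes, the myelinating glia, are still being made from precursors, and the newly made membrane needs cholesterol that the brain synthesises for itself. The dentate gyrus keeps a pool of stem cells that makes granule neurons through life, and their output declines with age. Growing axons use a distinct cytoskeleton and guidance proteins, the extracellular matrix around cells and vessels is rebuilt, and receptor subunits are exchanged at synapses.

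Total expected counts per library ran from 36731884 to 64849293, with means of 47936040 ± 7217939 at 4 weeks (SD, n = 6) and 49619803 ± 11066403 at 12 weeks (SD, n = 5). No library was a copy of another: the closest of 25 replicate pairs still differed 18.8 times as much as counting noise alone would give. Y-linked transcripts were present in all 11 libraries, and Xist did not exceed 0.124 CPM (counts scaled to a common library total) in any. Akap11 measured 245.9 to 339.7 CPM at 4 weeks and 239.8 to 306.9 CPM at 12 weeks. The tissue label was checked with summed marker scores, each the mean log2(CPM + 1) over a list of genes. The dentate granule and CA3 scores of all 11 libraries exceeded those of every one of the 52 other WT libraries, and the CA1 score did so in 10.

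The dissections were not equal. The thalamic score, built on 18 genes, was 6.23 in 4-week library 23, 5.81 in 914, 4.62 in 913 and 4.37 in 142, but 3.01 in 92 and 2.97 in 42, against 2.89 to 4.02 at 12 weeks. Scored on library totals without further scaling, dissected WT thalamus reached 6.84 to 7.91. On that scale WT hippocampus lay at 2.97 to 6.22 at 4 weeks and 2.92 to 4.06 at 12 weeks. Thus 4 of the 6 libraries at 4 weeks lay above every library at 12 weeks, while the other two lay within the range at 12 weeks. Gbx2, a transcription factor gene that defines thalamus, measured 0.0487 to 9.92 CPM at 4 weeks and 0.0731 to 1.01 CPM at 12 weeks. The striatal score (13 genes) was 4.07 and 4.20 in 12-week libraries 1 and 5, above the 2.83 to 3.51 seen at 4 weeks. The choroid plexus score (17 genes) spanned 1.06 to 4.51 at 4 weeks and 2.76 to 4.78 at 12 weeks, and the habenular score (10 genes) was high in 4-week library 914 and 12-week libraries 3 and 4, at 3.49, 3.37 and 3.77. Results are therefore also given with the thalamic score as a covariate, without the 4 libraries of high thalamic score (which leaves 2 at 4 weeks), without the 2 of high striatal score, and without both sets.

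**Figure D1:**
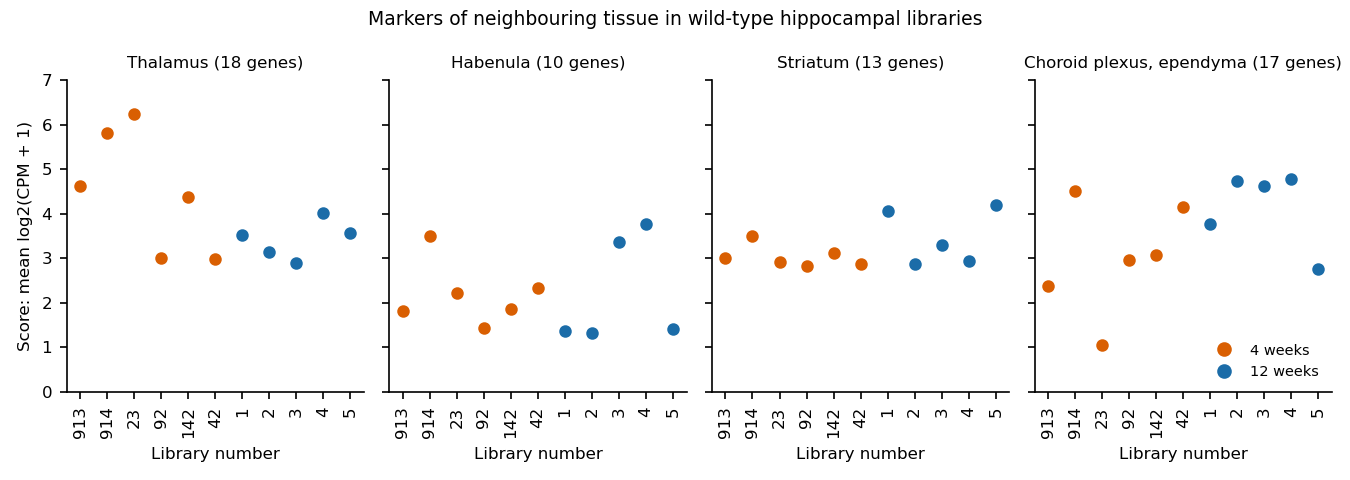
Marker scores (mean log2(CPM + 1) over each list, y axis) for every WT hippocampal library (x axis, library number), in orange at 4 weeks and in blue at 12 weeks. Thalamic scores of libraries 913, 914, 23 and 142 lie above all 5 libraries at 12 weeks, and striatal scores of libraries 1 and 5 lie above all 6 at 4 weeks.

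Of 16160 genes tested, 2077 (12.9%) differed between the ages at an adjusted p under 0.05, by the quasi-likelihood test of edgeR with Benjamini-Hochberg adjustment. At 12 weeks 929 genes (5.75% of those tested) were higher and 1148 (7.1%) were lower. The falls were larger than the rises: 142 genes fell more than 2-fold and 30 rose more than 2-fold, and the median log2 fold change was 0.29 among the rises and -0.44 among the falls, against 0.01 over all genes tested. For 1568 genes (9.7%) the CPM ranges of the ages did not overlap, 766 of them higher (4.74%) and 802 lower (4.96%) at 12 weeks. Genes at least 2-fold higher in thalamus than in hippocampus, as measured in the mutant libraries at 12 weeks, made up 7.49% of all genes tested, 14.2% of those that fell and 1.18% of those that rose. With the thalamic score as a covariate, 655 genes rose and 799 fell (9.0% called in all, 4.05% higher and 4.94% lower), and genes of that thalamic kind were 8.76% of the falls. Without the 4 libraries of high thalamic score 127 rose (0.768%) and 247 fell (1.49%), 2.26% in all. Without the 2 of high striatal score 452 rose (2.75%) and 643 fell (3.92%), 6.67% in all, and without both sets 19 rose (0.116%) and 70 fell (0.428%), 0.544% in all.

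**Figure D2:**
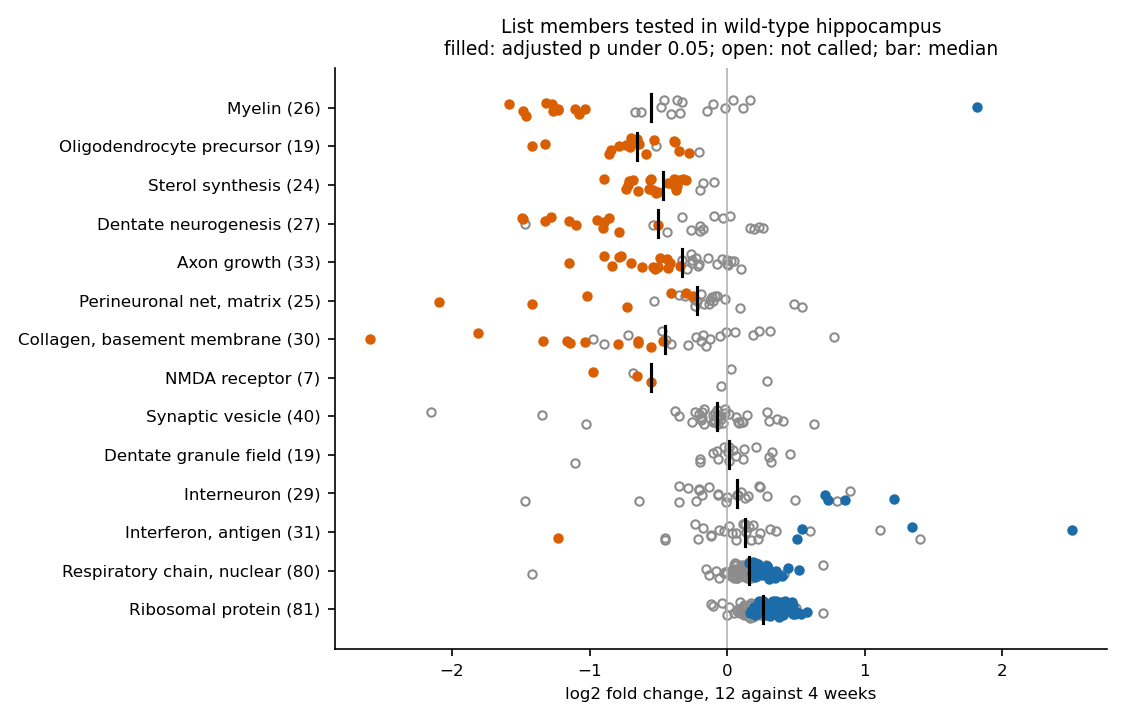
Log2 fold change at 12 against 4 weeks (x axis) for every tested member of 14 gene lists (y axis, number tested in brackets), with filled points called at an adjusted p under 0.05 and a bar at the list's median. The lists at the top lean to falls, with medians down to -0.65, and ribosomal protein genes lean to rises with a median of 0.26.

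The largest rises included genes with no common list. Xdh, which encodes the xanthine-oxidising enzyme that makes uric acid, lay from 0.950 to 2.03 CPM at 4 weeks (median 1.40) and was 4.06, 7.11, 4.09, 7.42 and 5.60 CPM in libraries 1 to 5 at 12 weeks. Every library at 12 weeks was above every library at 4 weeks (log2 fold change 1.93 ± 0.24 (SE), adjusted p = 0.000782). Il33 encodes a nuclear alarmin cytokine that mature oligodendrocytes and astrocytes hold, and it spanned from 7.85 to 21.9 CPM at 4 weeks (median 11.5) and was 40.8, 39.9, 50.3, 48.2 and 62.3 CPM in libraries 1 to 5 at 12 weeks. The ages did not overlap (log2 fold change 1.81 ± 0.29 (SE), adjusted p = 0.00250), and the higher values at 4 weeks, 14.7 to 21.9 CPM, belonged to libraries 913, 914 and 23. Alox12b, an epidermal lipoxygenase gene, rose from 2.49 ± 0.663 to 8.27 ± 3.16 CPM (mean ± SD, n = 6 and 5; log2 fold change 1.73 ± 0.24 (SE), adjusted p = 0.00124). Aass, an enzyme of lysine breakdown, changed by a log2 fold change of 0.97 (adjusted p = 0.00206), Lgals1, which encodes galectin-1, by 0.92 (adjusted p = 0.00215), and the lipid transporter gene Abca8a by 0.89 (adjusted p = 0.00187). The keratin gene Krt9 (0.85, adjusted p = 0.0226) and Glt8d2 (0.85, adjusted p = 0.0304) also rose. Krt9 lost its call without 12-week library 4 or 5, and Glt8d2 without 12-week library 1, 2, 3 or 5 or 4-week library 142, with adjusted p up to 0.0725. Without the 4 libraries of high thalamic score Xdh, Il33 and Lgals1 kept their calls. Alox12b, Aass, Abca8a, Krt9 and Glt8d2 lost theirs (adjusted p from 0.0571 to 0.186). Krt9 also lost its call with the thalamic covariate (adjusted p = 0.0837).

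**Figure D3:**
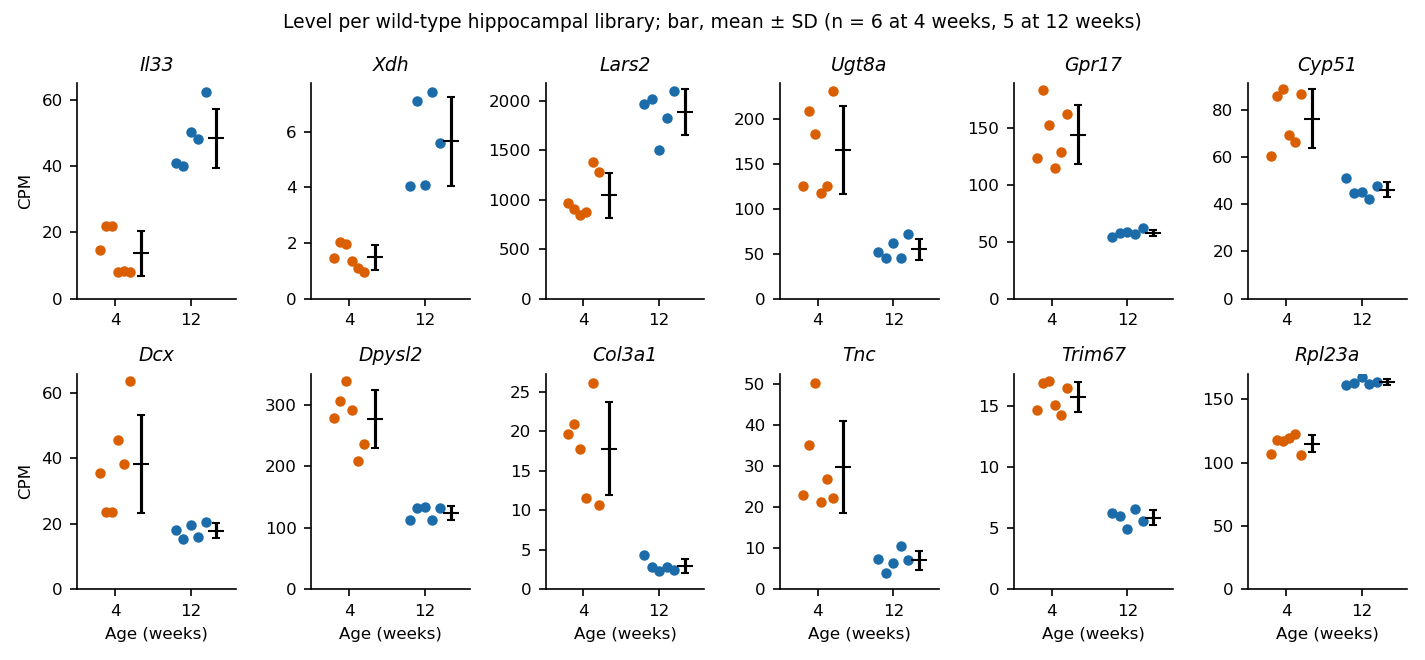
CPM (y axis, from 0) of 12 genes in each WT hippocampal library at 4 and 12 weeks, with the mean and SD drawn beside the points (n = 6 and n = 5). In each of the 12 panels the points of the 2 ages do not overlap, with Il33, Xdh, Lars2 and Rpl23a higher and the other genes lower at 12 weeks.

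Most genes of oligodendrocyte precursors and a part of the myelin genes were lower at 12 weeks. In bulk tissue, fewer cells of a type and less RNA per cell cannot be told apart. Ugt8a, the enzyme gene that makes the myelin lipid galactosylceramide, ranged from 117 to 230.3 CPM at 4 weeks (median 154) and was 52.1, 44.6, 61.9, 44.8 and 71.6 CPM in libraries 1 to 5 at 12 weeks. All 5 libraries at 12 weeks were below all 6 at 4 weeks (log2 fold change -1.58 ± 0.21 (SE), adjusted p = 0.000915). The highest values at 4 weeks were those of libraries 42, 914 and 23, of which 42 has one of the lowest thalamic scores. Of 26 myelin genes tested, 11 fell and 1 (Il33) rose, with a median log2 fold change of -0.55. Besides Ugt8a, the tight junction gene Cldn11 fell by 1.48 on the log2 scale (adjusted p = 0.00105). Mag and Mog, which encode surface proteins of the myelin sheath, fell by 1.32 and 1.23 on the log2 scale (adjusted p = 0.00261 and 0.00347), and Mbp, the myelin basic protein gene, fell by 1.03 (adjusted p = 0.0120). Other myelin genes did not pass the test: Opalin had a log2 fold change of -0.67 (adjusted p = 0.0577) and Car2, a carbonic anhydrase of oligodendrocytes, one of 0.16 (adjusted p = 0.377), with 126 to 188 CPM at 4 weeks and 156 to 199 CPM at 12 weeks.

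Among 19 genes of oligodendrocyte precursors and newly formed oligodendrocytes, 17 fell and none rose (median -0.65). Gpr17, a receptor of the committed precursor stage, ranged from 115 to 183 CPM at 4 weeks (median 141) and was 54.6, 57.2, 58.3, 56.5 and 61.7 CPM in libraries 1 to 5 at 12 weeks. The values at 12 weeks lay close together and far below the lowest at 4 weeks (log2 fold change -1.32 ± 0.11 (SE), adjusted p = 0.000211). Enpp6, a marker of newly formed oligodendrocytes, fell by 1.42 on the log2 scale (adjusted p = 0.00215), the lineage transcription factor gene Olig1 by 0.86 (adjusted p = 0.00636), and Pdgfra, the growth factor receptor of precursors, by 0.53 (adjusted p = 0.000643). Several of the strongest falls without a list were genes that oligodendrocytes also express, among them Gsn, which encodes the actin-severing protein gelsolin (log2 fold change -1.77 ± 0.20 (SE), adjusted p = 0.000562), and Sema6a, a membrane semaphorin (-1.61, adjusted p = 0.000838). Rnf122, a ubiquitin ligase gene, fell by 1.69 on the log2 scale (adjusted p = 0.000551), Rab7b, an endosomal GTPase gene, by 2.08 (adjusted p = 0.000551), and Slc45a3, a sugar transporter gene, by 1.99 (adjusted p = 0.00194). Without the 4 libraries of high thalamic score 10 of the myelin and 6 of the precursor genes still fell, and the medians were -0.50 and -0.60. Without the libraries of high striatal score the precursor count was 11, with the thalamic covariate it was 11, and without both sets 3 myelin genes and 1 precursor gene fell.

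Genes of cholesterol synthesis fell as a block. Of 24 tested, 20 fell and none rose, with a median log2 fold change of -0.47 and no overlap between ages for 14. Over all genes tested 7.1% fell and 4.96% were lower without overlap. Cyp51, the lanosterol demethylase of the pathway (chromosome 5, 4081145 to 4104746, minus strand, GRCm38, protein coding), spanned from 60.6 to 89.2 CPM at 4 weeks (median 77.6) and was 51.0, 45.0, 45.2, 42.3 and 47.7 CPM in libraries 1 to 5 at 12 weeks. The highest library at 12 weeks stayed below the lowest at 4 weeks (log2 fold change -0.72 ± 0.10 (SE), adjusted p = 0.00146). Mvd, which makes the isoprenoid unit, fell by 0.74 on the log2 scale (adjusted p = 0.00203). Hmgcs1, at the entry to the pathway, went from 342 ± 47.4 to 213 ± 24.8 CPM (mean ± SD, n = 6 and 5; log2 fold change -0.68 ± 0.10 (SE), adjusted p = 0.00194). Sqle, the squalene epoxidase gene, fell by 0.57 (adjusted p = 0.00125). Of the 4 members that did not pass, Fdft1, the squalene synthase gene, measured 71.3 to 85.0 CPM at 4 weeks and 66.7 to 79.3 CPM at 12 weeks (log2 fold change -0.09, adjusted p = 0.358). Without the libraries of high thalamic score 9 of the 24 still fell at a median of -0.50, and 6 without both sets. Requiring at least a 1.5-fold change left 6.

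The sterol genes moved together, so their start sites were read for 2 promoter motifs, the CCAAT box and the letters CACCCCAC, a core that sterol-responsive promoters can carry. RefSeq windows of 250 bases before the annotated start (GRCm38.p6) were found for 17 of the 24 genes. Only the first window listed for each gene was counted, and a further window of Dhcr7 held 2 CCAAT matches. CCAAT, on either strand and as ATTGG on the opposite one, was in 15 of the 17 and in 34.5% of all 27025 genes with a window. CACCCCAC, also searched on both strands and overlapping no CCAAT match by its letters, was in 2 of the 17 (Acat2 and Hmgcs1) and in 2.51% of all genes. A match of letters is a description and no evidence of binding. The windows of Mvd (chr8:122443423-122443672, minus strand) and Hmgcs1 (chr13:119690101-119690350, plus strand) are shown because both genes are described above and both windows lie outside the GENCODE gene. They read 5′ to 3′ along the gene's strand, with both motifs in capitals.
Mvd: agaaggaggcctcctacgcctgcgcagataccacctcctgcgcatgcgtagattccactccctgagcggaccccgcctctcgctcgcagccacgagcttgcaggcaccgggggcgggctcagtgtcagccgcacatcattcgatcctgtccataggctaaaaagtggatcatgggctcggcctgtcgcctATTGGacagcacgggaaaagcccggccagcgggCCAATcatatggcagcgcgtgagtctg
Hmgcs1: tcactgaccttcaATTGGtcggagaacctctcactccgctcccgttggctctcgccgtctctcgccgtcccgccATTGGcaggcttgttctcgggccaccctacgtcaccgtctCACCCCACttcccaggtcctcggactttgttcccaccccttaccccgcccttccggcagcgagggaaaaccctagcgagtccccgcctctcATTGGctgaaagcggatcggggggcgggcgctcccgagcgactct
Hmgcs1 carries 3 CCAAT matches and CACCCCAC starting 136 bases before the RefSeq start, and Mvd has 2 CCAAT matches.

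Several transcripts of newborn dentate neurons were lower at 12 weeks. Dcx, the doublecortin gene of migrating neuroblasts, lay from 23.5 to 63.4 CPM at 4 weeks (median 36.8) and was 18, 15.2, 19.5, 15.9 and 20.6 CPM in libraries 1 to 5 at 12 weeks. The ages did not overlap (log2 fold change -1.10 ± 0.23 (SE), adjusted p = 0.00997), and the spread at 4 weeks was wide, with library 42 highest. Of 27 genes of dentate neurogenesis tested, 12 fell and none rose (median -0.50), and 11 of the 27 were lower with no overlap between ages. Over all genes tested 7.1% fell and 4.96% were lower without overlap. The genes that fell included the fate factor genes Neurog2 (-1.49, adjusted p = 0.00387), Eomes (-1.28, adjusted p = 0.0124) and Sox11 (-0.95, adjusted p = 0.00611), the neuroblast gene Igfbpl1 (log2 fold change -1.48 ± 0.25 (SE), adjusted p = 0.00297), the axon guidance gene Draxin (-1.33, adjusted p = 0.00482) and Fabp7, a lipid-binding protein of radial glia (-1.15, adjusted p = 0.000455). Neurog2 was at a very low level, 0.991 to 1.98 CPM at 4 weeks and 0.310 to 0.708 CPM at 12 weeks. It lost its call without the libraries of high thalamic score (adjusted p = 0.0526). Eomes did not exceed 1.34 CPM at 12 weeks. The other 15 members of the list did not pass. Among them were Prox1 (129 to 222 CPM at 4 weeks and 119 to 187 CPM at 12 weeks; log2 fold change -0.19, adjusted p = 0.428) and Neurod1 (-0.20, adjusted p = 0.479), which mature granule cells also use. Counts were close without the libraries of high thalamic score (10, median -0.43) and with the thalamic covariate (13). Among 25 proliferation genes 2 fell, close to the 7.1% lower over all genes tested. They were Top2a (-1.08, adjusted p = 0.0324) and Ccnd2 (-0.24, adjusted p = 0.0417), at a list median of -0.31, while Mki67 gave -1.09 (adjusted p = 0.0543) with 2.48 to 11.2 CPM at 4 weeks and 1.80 to 3.72 CPM at 12 weeks. The count of proliferation genes that fell depended on the setting: it was 11 with the thalamic covariate, 4 without the libraries of high thalamic score or without 4-week library 23, 0 without 4-week library 92 or 12-week library 1, 2 or 4 or both 12-week libraries of high striatal score, and 1 without 4-week library 42, 142 or 913 or 12-week library 5.

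Genes of axon growth and the immature neuronal cytoskeleton were lower for 15 of 33 members and higher for none (median -0.33). Dpysl2, a collapsin response mediator that carries guidance signals to microtubules, lay from 208 to 339 CPM at 4 weeks (median 284) and was 112, 131, 134, 112 and 132 CPM in libraries 1 to 5 at 12 weeks. No value at 12 weeks reached the lowest at 4 weeks (log2 fold change -1.15 ± 0.12 (SE), adjusted p = 0.000333). Its relative Dpysl3 varied little within an age, 95.6 to 110.1 CPM at 4 weeks and 50.6 to 62.7 CPM at 12 weeks (log2 fold change -0.90 ± 0.07 (SE), adjusted p = 8.1e-05), and Marcksl1, a membrane and actin regulator, fell by 0.84 on the log2 scale (adjusted p = 0.000333). Tuba1a, the tubulin gene of growing neurons, fell by 0.41 (adjusted p = 0.00188). Gap43, the growth cone protein often used as a marker of axon growth, was not among them: its ranges were 64.6 to 129.5 CPM at 4 weeks and 64.7 to 113 CPM at 12 weeks (log2 fold change -0.26, adjusted p = 0.425), with the highest values at 4 weeks in libraries 914 and 23. Without the libraries of high thalamic score 10 members fell, and 7 without both sets.

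Trim67, which encodes a ubiquitin ligase of neurons that acts in axon branching and was named after its values were seen, had the smallest adjusted p of all genes tested. It lies on chromosome 8 (124793092 to 124834713, plus strand, GRCm38, protein coding) and ranged from 14.2 to 17 CPM at 4 weeks (median 15.7) and was 6.18, 5.94, 4.94, 6.52 and 5.56 CPM in libraries 1 to 5 at 12 weeks. Every library at 4 weeks stood far above the highest at 12 weeks (log2 fold change -1.43 ± 0.09 (SE), adjusted p = 1.7e-05).

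A minority of matrix and vascular wall genes fell. Col3a1, a fibrillar collagen of vessel walls and meninges, ranged from 10.7 to 26.1 CPM at 4 weeks (median 18.7) and was 4.37, 2.76, 2.27, 2.81 and 2.40 CPM in libraries 1 to 5 at 12 weeks, the second largest fall among the genes named by the rule (log2 fold change -2.59 ± 0.26 (SE), adjusted p = 0.000333). Library 1 stood above the other 4 at 12 weeks and still far below the lowest at 4 weeks. Of 30 collagen and basement membrane genes 11 fell and none rose (median -0.45), among them Col1a1 (-1.81, adjusted p = 0.000745), Col1a2 (-1.34, adjusted p = 0.00174), the basement membrane linker gene Nid1 (-1.14, adjusted p = 0.000643) and Col4a1 (-0.65, adjusted p = 0.00105). The elastin gene Eln fell by 1.53 on the log2 scale (adjusted p = 0.00260). Without the libraries of high thalamic score 5 collagen and basement membrane genes fell, and 3 without both sets. Mural cell, fibroblast and meningeal markers moved alongside, with 6 of 21 lower, 3 of them collagens, and a summed score of 3.50 to 4.05 at 4 weeks against 3.04 to 3.52 at 12 weeks. The list median was -0.34, and all 21 members were detected well enough to be tested. The part of these cells in the result was not tested.

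In the brain's own matrix, 7 of 25 genes of perineuronal nets and their enzymes fell. Tnc, the developmental matrix glycoprotein tenascin C, lay from 21.3 to 50.2 CPM at 4 weeks (median 24.9) and was 7.22, 3.86, 6.26, 10.4 and 7.13 CPM in libraries 1 to 5 at 12 weeks, without overlap (log2 fold change -2.10 ± 0.28 (SE), adjusted p = 0.000992). Ncan, the neurocan gene, fell by 0.73 on the log2 scale (adjusted p = 0.000745), the chondroitin sulfotransferase gene Chst3 by 1.02 (adjusted p = 0.000976) and the proteoglycan-cutting protease gene Adamts4, which oligodendrocytes also express, by 1.42 (adjusted p = 0.00105). Acan, the aggrecan core of mature nets, gave a log2 fold change of -0.13 (adjusted p = 0.672). The count was 5 without the libraries of high thalamic score and 1 without both sets.

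Few synaptic genes were called, where 12.9% of all genes tested were. By edgeR 0 of 40 genes of vesicle release and 0 of 20 AMPA and kainate receptor genes passed, with 9 and 6 at an unadjusted p under 0.05 and with 3 and 2 called by DESeq2. Neither of the NMDA receptor subunits whose balance shifts in early development passed the test: Grin2a measured 185 to 349.6 CPM at 4 weeks and 272 to 485 CPM at 12 weeks (0.29 ± 0.17, adjusted p = 0.287) and Grin2b 442 to 766 CPM at 4 weeks and 485 to 957 CPM at 12 weeks (0.03 ± 0.19, adjusted p = 0.943; both log2 fold change ± SE). Grin2d, Grin3a and Grin2c, the minor subunits, fell by 0.97, 0.66 and 0.55 on the log2 scale (adjusted p = 0.0126, 0.0258 and 0.0284). In Grin2d and Grin3a the 3 highest values at 4 weeks were those of libraries 913, 914 and 23, and none of the 3 calls held without the libraries of high thalamic score or without those of high striatal score. Grin2d alone kept its call when 12-week library 2 or 3 was left out. The chloride importer gene Slc12a2 fell by 0.57 (adjusted p = 0.0415), a call lost without any 1 of the 5 libraries at 12 weeks or 4-week library 23, 42 or 914 (adjusted p up to 0.0963). The exporter gene Slc12a5 gave -0.07 ± 0.08 (SE, adjusted p = 0.561).

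Interneuron genes were higher for 4 of 29 members and lower for none (median 0.07). The neuropeptide gene Cort ranged from 1.38 to 2.84 CPM at 4 weeks (median 2.38) and was 4.81, 7.02, 4.94, 3.82 and 5.84 CPM in libraries 1 to 5 at 12 weeks (log2 fold change 1.22 ± 0.20 (SE), adjusted p = 0.00269), and Npy lay from 16.3 to 35.3 CPM at 4 weeks (median 26.6) and was 38.8, 54.1, 54.3, 40.0 and 50.4 CPM in libraries 1 to 5 at 12 weeks (log2 fold change 0.86 ± 0.17 (SE), adjusted p = 0.00845). In both the ages did not overlap. Lamp5, a marker of neurogliaform cells, had a log2 fold change of 0.73 (adjusted p = 0.0246) and Dlx6, an interneuron transcription factor gene chosen after its value was seen, one of 0.71 (adjusted p = 0.0232). Lamp5 lost its call without 12-week library 2 or 5 and Dlx6 without 12-week library 1, 3 or 4. Pvalb, of fast-spiking cells, gave 0.29 (adjusted p = 0.0887, and 0.039 without 12-week library 4), and Sst 0.80 (adjusted p = 0.0586, and 0.0232 without 12-week library 1). The count was 2 without the libraries of high striatal score, 1 without those of high thalamic score and 0 without both. The striatal markers Ppp1r1b, which encodes a phosphatase inhibitor controlled by protein kinase A, and Penk, the enkephalin precursor, rose by log2 fold changes of 1.03 (adjusted p = 0.00915) and 1.16 (adjusted p = 0.0142). Penk was highest in 12-week libraries 1 and 5, at 69.9 and 71.2 CPM, the libraries with the high striatal scores, and the part of striatal tissue was not tested. Of markers of the hippocampal fields edgeR called 0 of 19 dentate, 1 of 12 CA1 (Spink8, 0.90, adjusted p = 0.0117), 0 of 13 CA2 and 1 of 13 CA3 genes (Ociad2, 0.39, adjusted p = 0.00211). Over all genes tested 12.9% were called and 5.75% rose, and these lists are short. At an unadjusted p under 0.05 there were 3 dentate and 4 CA2 genes, and DESeq2 called 1 and 0.

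Many ribosomal protein genes and a smaller share of respiratory chain genes rose by modest amounts. Of 81 cytosolic ribosomal protein genes 48 rose and none fell (median 0.26). Rpl23a lay from 106 to 122 CPM at 4 weeks (median 117) and was 161, 163, 167, 162 and 164 CPM in libraries 1 to 5 at 12 weeks (log2 fold change 0.51 ± 0.05 (SE), adjusted p = 0.000333). The 5 libraries at 12 weeks nearly coincided and stood above all 6 at 4 weeks. Rps24 and Rpl31 rose by log2 fold changes of 0.58 and 0.54 (adjusted p = 0.000994 and 0.000374). Among 80 nuclear genes of the respiratory chain 25 rose and none fell (median 0.16), led by Ndufa12 of complex I (log2 fold change 0.52 ± 0.07 (SE), adjusted p = 0.00100), the cytochrome c gene Cycs (0.44, adjusted p = 0.00599) and Uqcrb of complex III (0.40, adjusted p = 0.00102). Transcript length moved with age in the same direction. Leaving these 2 lists out, genes whose longest transcript is under 1 kb had a median log2 fold change of 0.16, with 13.2% called higher, and genes of 8 kb and over had -0.07, with 13.7% called lower. The ribosomal list has a median longest transcript of 1.11 kb and the respiratory list of 1.03 kb, and the part of length in their rise was not tested. Of the lists that fell, collagen and basement membrane genes have a median of 5.86 kb and sterol genes of 3.27 kb. Genes of 4 to 8 kb had a median log2 fold change of -0.05, with 11.6% called lower. Those of 2 to 4 kb had 0.03, with 5.53% called lower. The part of length in these falls was not tested. Ribosomal copies with near-identical sequence may share reads. Without the libraries of high thalamic score 12 ribosomal and 7 respiratory genes rose, without those of high striatal score 28 and 15, and without both sets 0 and 1. Respiratory calls numbered 15 without 12-week library 4. None of these rises in either list reached 1.5-fold.

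Lars2, the mitochondrial leucyl-tRNA synthetase gene, ranged from 848 to 1378 CPM at 4 weeks (median 935) and was 1965, 2014, 1505, 1826 and 2096 CPM in libraries 1 to 5 at 12 weeks (log2 fold change 0.85 ± 0.14 (SE), adjusted p = 0.00302). Gm42418, a predicted gene that overlaps ribosomal RNA sequence and was named after its values were seen, lay from 495 to 1237 CPM at 4 weeks (median 962) and was 2396, 2475, 2444, 2147 and 3714 CPM in libraries 1 to 5 at 12 weeks (log2 fold change 1.48 ± 0.21 (SE), adjusted p = 0.00126). Both were higher in every library at 12 weeks. Whether ribosomal RNA carried into the libraries had a part in either rise was not tested. Of 13 mitochondrially encoded genes 1 was called, mt-Nd3 (0.80, adjusted p = 0.0214, lost without 12-week library 1 or 3), and the summed scores overlapped, 9.67 to 10.6 at 4 weeks and 9.88 to 10.6 at 12 weeks.

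Of 31 interferon and antigen presentation genes 4 rose, 1 fell and 26 did not pass the test. Over all genes tested 5.75% rose and 7.1% fell. B2m, the light chain of class I molecules, was 39.7 to 44.9 CPM at 4 weeks and 54.7 to 64.0 CPM at 12 weeks (log2 fold change 0.50 ± 0.05 (SE), adjusted p = 0.000476), without overlap. The class II genes H2-Aa, 0.143 to 0.411 CPM at 4 weeks and 0.424 to 2.54 CPM at 12 weeks (log2 fold change 2.51 ± 0.44 (SE), adjusted p = 0.00386), and H2-Eb1, 0.352 to 0.701 CPM at 4 weeks and 0.847 to 2.27 CPM at 12 weeks (log2 fold change 1.34 ± 0.27 (SE), adjusted p = 0.00837), were at very low levels. Ifi27 was the other member that rose (0.55, adjusted p = 0.0312), and Oas1a fell (-1.23, adjusted p = 0.0218). The count of rises was 1 without the libraries of high thalamic score and 2 without both sets, and Ifi27 lost its call without 12-week library 2, 3 or 4 or 4-week library 142 or 913. Among 32 microglial and complement genes 2 rose and 2 fell, close to the 5.75% higher and 7.1% lower over all genes tested. The called members included a rise of the complement gene C4b (0.46, adjusted p = 0.0106) and a fall of the perivascular macrophage marker Mrc1, 4.19 to 5.68 CPM at 4 weeks and 1.98 to 3.18 CPM at 12 weeks (log2 fold change -0.94 ± 0.16 (SE), adjusted p = 0.00295). Aqp4, the water channel of astrocyte endfeet, ranged from 193 to 226 CPM at 4 weeks (median 206) and was 155, 104, 104, 134 and 113 CPM in libraries 1 to 5 at 12 weeks (log2 fold change -0.76 ± 0.10 (SE), adjusted p = 0.000992), one of 4 astrocyte genes that fell, with 1 that rose, of 29. Plin4, a lipid droplet coat gene that glucocorticoids induce, spanned 0.775 to 3.41 CPM at 4 weeks and 1.49 to 17.7 CPM at 12 weeks (log2 fold change 2.42 ± 0.56 (SE), adjusted p = 0.0156) and was the single called gene of 19 in the glucocorticoid list. That count is close to the 5.75% higher over all genes tested.

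The mutant hippocampi gave the same comparison in libraries that the WT fit did not use. Any difference in collection between the ages may recur in them, so they cannot tell it from age either. Transcript length also moved with age in them, with the ribosomal and respiratory lists left out. Genes under 1 kb had medians of 0.13 in HET and 0.11 in KO, and genes of 8 kb and over -0.23 and -0.11. At 12 against 4 weeks 2045 of 16120 genes (12.7%) were called in HET and 3225 of 16231 (19.9%) in KO. The HET count was 1159 without HET 12-week library 4. Of the 929 genes higher in WT, 904 were also higher in HET (97.3%), 435 of them called, and 925 of 929 were higher in KO (99.6%), 517 of them called. Of the genes lower in WT, 1136 of 1143 tested were lower in HET (611 called) and 1139 of 1145 in KO (830 called). Over all genes 49.9% were higher in HET and 51.3% in KO. The thalamic score, on library totals, did not separate the ages in HET (2.94 to 4.85 at 4 weeks and 2.58 to 5.21 at 12 weeks) but did in KO (5.00 to 5.71 against 2.69 to 4.65).

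By list, 13 of 19 precursor genes fell in HET and 15 in KO, where 7.54% and 11.0% of all genes fell. The other counts, in HET and then KO, were 9 and 11 of 26 for myelin, 15 and 21 of 24 for sterol synthesis, 9 and 12 of 27 for dentate neurogenesis, 16 and 18 of 33 for axon growth, and 11 and 18 of 30 for collagen and basement membrane. Of the myelin genes 2 rose in HET and 1 in KO, and the list median was -0.05 in HET and -0.47 in KO, against -0.55 in WT. The precursor, sterol, neurogenesis, axon growth and collagen lists had medians from -0.52 to -0.33 in HET and from -0.65 to -0.40 in KO. Ribosomal protein genes rose for 54 of 81 in HET and for 9 in KO, where 5.14% and 8.83% of all genes rose. Il33 rose in both, by log2 fold changes of 2.18 and 2.00 (adjusted p = 8.1e-05 and 5.6e-05), and Trim67 fell in both, by 1.11 and 1.27 (adjusted p = 0.00256 and 0.000180). Dcx fell by 1.25 in HET and 0.89 in KO (adjusted p = 0.000391 and 0.000387). Alox12b was called in KO (1.55, adjusted p = 0.00834) and not in HET (0.23, adjusted p = 0.462), a difference between genotypes that was not tested.

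**Figure D4:**
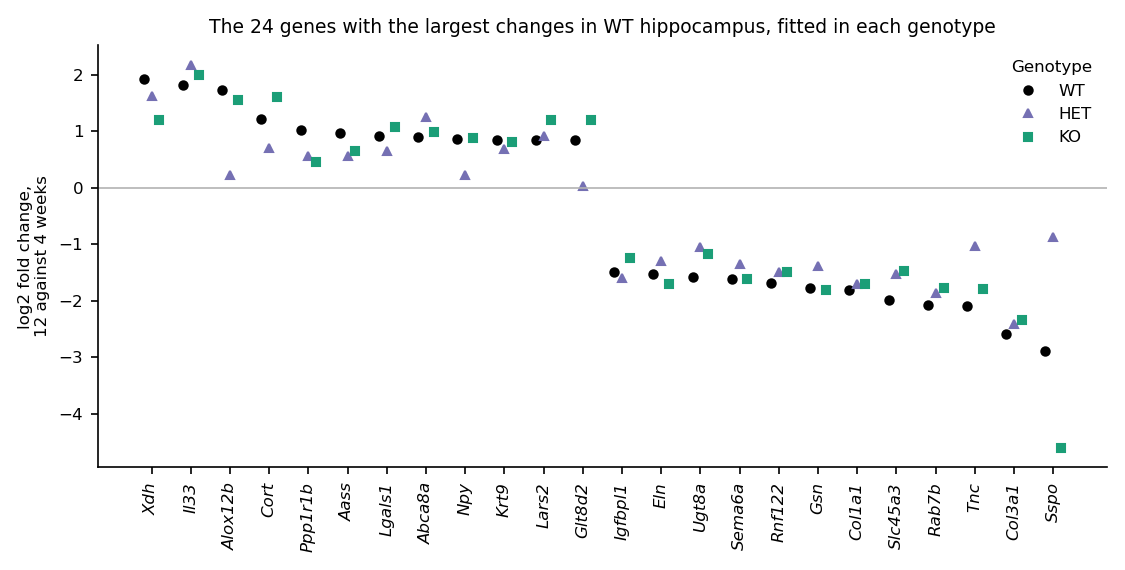
Log2 fold change at 12 against 4 weeks (y axis) of the 12 largest rises and 12 largest falls in WT hippocampus (x axis), from separate fits of the WT (circles), HET (triangles) and KO (squares) libraries. All 3 genotypes lie on the same side of 0 for each of the 24 genes, with Sspo at -4.61 in KO and -0.87 in HET.

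The age difference in hippocampus was then set against that in the other 5 WT regions. Fitted within each region, somatosensory cortex had 22.8% of its genes called, thalamus 14.3%, prefrontal cortex 13.8%, striatum 13.6% and substantia nigra 4.24%. Of genes also tested in hippocampus, 1635 of 15344 rose and 1914 fell in somatosensory cortex, and 937 of 15521 rose and 1242 fell in prefrontal cortex. In thalamus 1147 of 15233 rose, and in striatum 921 of 14963. The oligodendrocyte precursor genes had medians below 0 in every region, from -0.71 in substantia nigra and -0.65 in hippocampus to -0.22 in prefrontal cortex. The myelin list had medians of -1.22 in substantia nigra, -0.59 in striatum, -0.55 in hippocampus, -0.54 in thalamus, -0.27 in prefrontal cortex (3 called higher and 8 lower) and -0.07 in somatosensory cortex (5 higher and 11 lower). Its strongest fall in hippocampus, Ugt8a, was also a fall in all 5 other regions, by 0.82 on the log2 scale in somatosensory cortex to 1.59 in striatum (adjusted p at most 0.0203). Xdh rose in all 5, by 1.56 to 2.67 (adjusted p at most 0.000537). The neurogenesis list had a median of -0.50 in hippocampus and of -0.26 to -0.05 elsewhere. Sterol synthesis ran from -0.48 in substantia nigra to -0.08 in prefrontal cortex. Ribosomal genes had a median of 0.26 in hippocampus, 0.34 in thalamus (61 of 81 called higher), 0.28 in prefrontal cortex (24), 0.20 in striatum (8), -0.01 in somatosensory cortex (1 higher, 2 lower) and -0.19 in substantia nigra. These medians were not tested against each other.

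**Figure D5:**
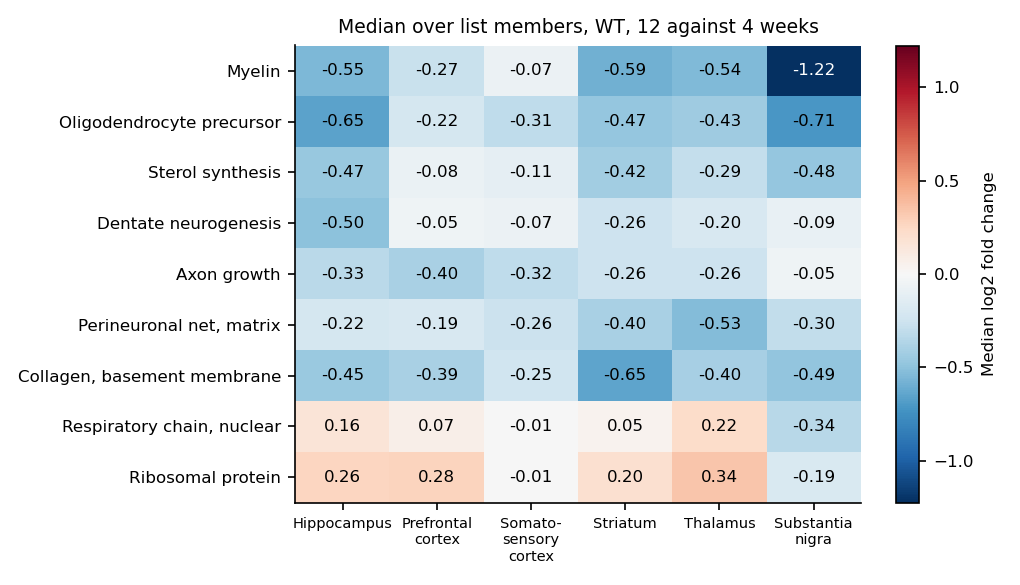
Median log2 fold change at 12 against 4 weeks over the members of 9 gene lists (rows) in each WT region (columns), from separate fits. The first 7 lists are below 0 in every region, and the ribosomal list is 0.26 in hippocampus, between -0.19 in substantia nigra and 0.34 in thalamus.

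In one fit over all 63 WT libraries, the age effect in hippocampus minus the mean of the other 5 regions was called for 27 of 17552 genes (0.154%), 4 in the positive (0.0228%) and 23 in the negative direction (0.131%). Each of the 10 differences followed across settings lost its call without at least 1 hippocampal library. None of the members of the myelin, precursor, sterol, neurogenesis, axon growth, collagen or ribosomal lists was among them. The thalamic dissections were not equal either. On library totals, WT thalamus had CA1 scores of 1.83 to 5.00 at 4 weeks (median 2.15) and 1.90 to 2.23 at 12 weeks. Its dentate granule scores were 3.63 to 5.61 (median 3.77) and 3.65 to 3.83. The part of hippocampal tissue in the thalamic age values, which enter the subtracted mean, was not tested. Cort had a difference of 2.69 ± 0.55 on the log2 scale (SE, adjusted p = 0.0367): it rose by 1.22 in hippocampus and measured -0.31 and -0.16 in prefrontal and somatosensory cortex. In thalamus, striatum and substantia nigra it was too low to be tested alone, yet these regions enter the subtracted mean. In the mutant libraries at 12 weeks Cort in thalamus and striatum was 0.0105 and 0.0293 times its hippocampal level. The size of the difference thus rests partly on values near 0 counts. Trim67 had a difference of -1.05 ± 0.22 (adjusted p = 0.0367), with -0.62 in prefrontal cortex and -0.06 in thalamus, and Triobp, an actin-binding protein gene also named after its values were seen, one of -0.66 ± 0.15 (adjusted p = 0.0372). Vstm2b (0.51), Cdc42se2 (0.43) and Mei1 (1.13, named after its value was seen) were the other positive differences, and Cdc42se2 itself measured 0.03 in hippocampus, while it fell in 4 of the other 5 regions. The largest negative difference was that of Sspo, secreted by the subcommissural organ (-2.07 ± 0.48). Sspo ranged from 3.94 to 86.7 CPM at 4 weeks (median 5.88) and was 2.61, 2.21, 3.12, 2.31 and 2.85 CPM in libraries 1 to 5 at 12 weeks, and 4-week library 914 held the maximum, with the other 5 between 3.94 and 9.65 CPM. In the hippocampal fit its log2 fold change of -2.88 (adjusted p = 0.0465) lost its call without 4-week library 42 or any 1 of the libraries at 12 weeks, and was -1.18 (adjusted p = 0.0112) without 4-week library 914. Tmie, Rims3, Itih3 and Pcbd1 followed at -1.53, -1.43, -1.29 and -1.21. All 4 are at least 2.52 times as high in thalamus as in hippocampus, and Rims3 measured 143, 322 and 371 CPM in 4-week libraries 913, 914 and 23 against 44.2 to 98.6 CPM in the other 3. The part of thalamic tissue in these differences was not tested. The count of 27 was 0 without 4-week library 23 or 12-week library 1 or 2, 2 without 4-week library 914, 3 without 12-week library 3, 17 without 12-week library 4, and 61, 119 and 131 without 4-week libraries 142, 42 and 92.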

How the data were processed

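Bulk RNA sequencing of 11 WT hippocampi was analysed, 6 at 4 weeks and 5 at 12 weeks, beside HET and KO hippocampi and the other WT regions. Per the labels' protocols, frozen dissected tissue gave total RNA (RNeasy Mini Kit) for TruSeq Stranded mRNA libraries. The authors deposited expected counts (estimates that can be fractional) in 1 table of 28338 genes by 186 libraries, and the tool Salmon and the build mm10 are named, per the submitters' processing notes. For the annotation and the use of strand, which the sources used here do not give, nothing was assumed, so overlapping, antisense and near-identical genes are uncertain. No value column was left without a sample (0).

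Expected counts were rounded and fitted with edgeR 4.0.16 in R 4.3.3 (TMM scaling, filterByExpr, glmQLFit, glmQLFTest, Benjamini-Hochberg over all genes tested), and genes were called at an adjusted p under 0.05. CPM are TMM-scaled within the 11 libraries, so genes are compared between ages and not with each other. SEs were obtained as the absolute log2 fold change over the root of the F statistic. On simulated data with 200 changed genes, the test recovered 57.0% at 1.5-fold and 77.0% at 2-fold. Scores use a pseudocount of 1 and came from 40 gene lists in all. The members and lists were chosen with earlier results of these data known. Genes were named by rule: the 12 largest rises and falls that were called, reached 1 in average log2 CPM and did not overlap between ages, up to 3 called members per list and direction, 8 developmental genes, and, at the same average level, up to 5 called rises and 5 falls of the region difference. Predicted genes were left out of the rule, and some genes that it names are not reported here. Others are said to be named or chosen after their values were seen, or are members of a list (Mag, Mog, Opalin, Car2, Pdgfra, Sox11, Fabp7, Eomes, Hmgcs1, Sqle, Fdft1, Col4a1, Nid1, Ncan, Acan, Mki67, Neurod1, Prox1, Tuba1a, B2m, Sst) taken after theirs were seen. Positions are from GENCODE M21 on GRCm38 by symbol, and do not describe the counting. Alternatives were RLE scaling, no filter, DESeq2 1.42.0, other genotypes in the fit, a thalamic covariate, 1 surrogate variable (sva 3.50.0), a fold minimum, a limma 3.58.1 voom fit with a replicate block, and each library left out. Sets of libraries with high thalamic or striatal scores were left out after seeing the data.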

Additional observations from a re-analysis of the deposited data

Results flagged for a closer look

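Among 274 groups of values examined for 1 library far from the rest (about 1 in 20 is picked out by chance), 15 held one. At 4 weeks these were Sspo in library 914 (86.7 CPM, others 3.94 to 9.65), Grin2c in library 23 (91.8 CPM, others 48.9 to 61.6), the endothelial lactate transporter gene Slc16a1 in library 142 (40.3 CPM, others 49.4 to 54.1) and mt-Nd3 in library 92 (275 CPM, others 150 to 195). At 12 weeks, library 5 stood apart for Igfbpl1 (3.70 CPM, others 5.59 to 6.29), Oas1a (0.0942 CPM, others 0.239 to 0.283), Gap43 (113 CPM, others 64.7 to 77.8) and Gm42418 (3714 CPM, others 2147 to 2475), and library 4 for Agt, the angiotensinogen gene of astrocytes (27.0 CPM, others 9.39 to 13.4), and for a score of blood genes (2.80, others 1.35 to 1.5). Library 3 stood apart for Cdc42se2 (194 CPM, others 225 to 237), Pdgfra (41.5 CPM, others 45.2 to 46.4) and Eomes (1.34 CPM, others 0.629 to 0.716), library 1 for Col3a1 (4.37 CPM, others 2.27 to 2.81), and library 2 for Dlx6 (2.28 CPM, others 3.23 to 3.43).

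In edgeR's test of the difference itself, hippocampus and the average of the 5 further regions had unequal age effects for Cort (2.69 on the log2 scale), Mei1 (1.13), Vstm2b (0.51), Cdc42se2 (0.43), Triobp (-0.66), Trim67 (-1.05), Pcbd1 (-1.21), Itih3 (-1.29), Rims3 (-1.43), Tmie (-1.53) and Sspo (-2.07).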

How the results depend on the processing

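The count of 2077 genes called in WT hippocampus stayed within 1.5 times of that value with RLE scaling, DESeq2, no filter, the other genotypes in the fit, the thalamic covariate and 1 surrogate variable. It was 1395 to 2009 with 1 library left out, 514 with a minimum of 1.5-fold, 1095 without the libraries of high striatal score, 374 without those of high thalamic score and 89 without both sets, where fewer libraries were tested. HET calls numbered 3101 with DESeq2 and 1159 to 3039 with 1 library left out (lowest without 12-week library 4), and KO calls 2216 to 3234 with 1 left out. The region difference of 27 genes was 136 with DESeq2, 10 with RLE, 15 with no filter and 0 to 131 with 1 hippocampal library left out. The cause of these shifts was not tested. No paired analysis was possible because the ages share no library number. For the region difference, libraries of the same number within an age had a median correlation of 0.0547 over 151 pairs, and a limma-voom fit with a replicate block called 35 genes, against 14 by voom without it. Of 130 genes followed, 33 lost a call without at least 1 library. Direction turned for 8 genes. With the thalamic covariate the log2 fold changes were Grin2b -0.11, Gap43 0.10, Cdc42se2 -0.0285, Rims3 0.0092 and Tmie 0.0048; with 1 surrogate variable Grin2b -0.14, Gap43 0.0839 and Cdc42se2 -0.0507. Without the high thalamic libraries they were Grid2ip 0.011, Grin2b -0.0471, Gap43 0.22, Cdc42se2 -0.0248, Pcbd1 0.21, Rims3 0.40 and Tmie 0.31, without the high striatal ones Cdc42se2 -0.0204 and Acan 0.0112, and without both Cdc42se2 -0.0919, Pcbd1 0.20, Rims3 0.27 and Tmie 0.43. Leaving out 1 library gave Grin2b -0.186 to 0.1065 and Cdc42se2 -0.0225 to 0.0805. Removal of a library subset with few whole-number values was not run, since 0 of the 11 libraries belong to it. Of the 186 libraries 16 do, all at 4 weeks. They include KO hippocampal library 51, without which KO calls numbered 3234. They also include WT libraries of prefrontal cortex, somatosensory cortex, striatum and substantia nigra. The part of this subset in the age values of those regions and in the region difference was not tested.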
